A study of Arabidopsis thaliana with 18 samples.

Results

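Arabidopsis thaliana plants labelled yak1lst8-1, which carry the yak1 and lst8-1 mutations together, were compared with wild type plants of the Col0 accession to describe the net state of the transcriptome and what stayed away from the wild type level. The 6 libraries used, 3 titled yak1lst8-1 and 3 titled Col0, were chosen by title from the 18 libraries of the series, and the 3 lst8-1 and 3 yak1 libraries of the single mutants served as reference points. Every library was made from whole plants of the Col0 background at Boyes stage 1.02, grown in vitro with 0.3 % sucrose at 20 °C and 16 h of light without treatment. The series describes the lines as gene knockouts and does not state the insertion sites, the number of independent lines or the hour of harvest. Its design text speaks of 2 biological replicates while the titles number 3 libraries a genotype, so p-values may partly measure technical spread.

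TOR is a protein kinase that works in a complex with RAPTOR and the WD40 protein LST8, promotes protein synthesis and growth when nutrients are plentiful, and holds back autophagy. YAK1 is a kinase of the DYRK family that restrains growth and promotes abscisic acid responses, and in Arabidopsis its loss has been reported to relieve the growth arrest seen when TOR is inhibited. The circadian clock, which appears prominently in the results, is built from morning expressed factors such as CCA1 and LHY that repress evening expressed genes through a promoter motif called the evening element.

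Total counts ran from 12872631 to 16499208 in the Col0 libraries and from 10801464 to 17218178 in the yak1lst8-1 libraries, and 20619 of 33602 gene models passed the filter on low counts. Levels are given as CPM, counts scaled to equal library size after normalization by the trimmed mean of M values, in the order of libraries 1, 2 and 3. Fold changes are on the log2 scale, yak1lst8-1 against Col0, with their standard error (SE, n = 3 a group), and p is the Benjamini-Hochberg adjusted p of edgeR's quasi-likelihood test over all genes tested. A gene is said to rise or fall where that p is below 0.05. In whole plants, fewer cells of a type and less RNA per cell cannot be told apart.

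The 2 mutated genes were examined first. LST8-1, on chromosome 3, stood at 54.8, 48.2 and 49.2 CPM in Col0 and at 1.63, 2.02 and 0.928 CPM in yak1lst8-1, which is 13 to 28 counts a library. The log2 change was -5.08 ± 0.13 (adjusted p = 1.03e-14), and the groups were far apart. YAK1, on chromosome 5, went the other way: it stood at 99.4, 138 and 130 CPM in Col0 and at 409, 336 and 265 CPM in yak1lst8-1, a log2 change of 1.46 ± 0.16 (adjusted p = 8.09e-06). The single yak1 libraries also held 398, 320 and 247 CPM, whereas the lst8-1 libraries held 127, 126 and 131 CPM. Counts over the whole gene do not show whether a working transcript is made, so the YAK1 counts do not bear out a loss of the transcript in the libraries labelled yak1 and yak1lst8-1, and every direction below rests on those labels.

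Among the other genes listed with the TOR complex, S6K1, a kinase that TOR activates, rose from 71.5, 66.4 and 58.6 CPM to 98.8, 98.9 and 106 CPM (0.63 ± 0.08, adjusted p = 2.94e-05). RAPTOR2 rose by 0.34 ± 0.12 (adjusted p = 0.0484), its groups overlapped, and the call was lost in 8 of the alternatives, with a p of 0.193 without yak1lst8-1 replicate 1 and 0.181 without Col0 replicate 3. TOR itself had a log2 difference of -0.07 (95 % interval -0.32 to 0.18, adjusted p = 0.748), RAPTOR1 one of -0.06 (adjusted p = 0.704) and S6K2 one of 0.11 (adjusted p = 0.603). TOR stood at 61.3, 95.7 and 102 CPM in Col0, and without Col0 replicate 1 3 of the 7 tested members of the list were lower in place of 1. LST8-2, the second LST8 gene, had a count of 0 in all 12 libraries of these 4 genotypes.

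Over all genes, 2119 were higher in yak1lst8-1 (10.3 % of those tested) and 1784 lower (8.65 %). The change was at least 2-fold for 556 of the higher and 223 of the lower genes, the median size among the called genes was 0.55 on the log2 scale, and the median over all genes tested was -0.01. Col0 and yak1lst8-1 libraries did not overlap for 34.6 % of the genes tested and for 3794 of the 3903 called. When libraries were scaled to their totals alone, 1739 genes were higher and 2164 lower, so that the higher share of the calls went from 54.3 % to 44.6 %.

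**Figure D1:**
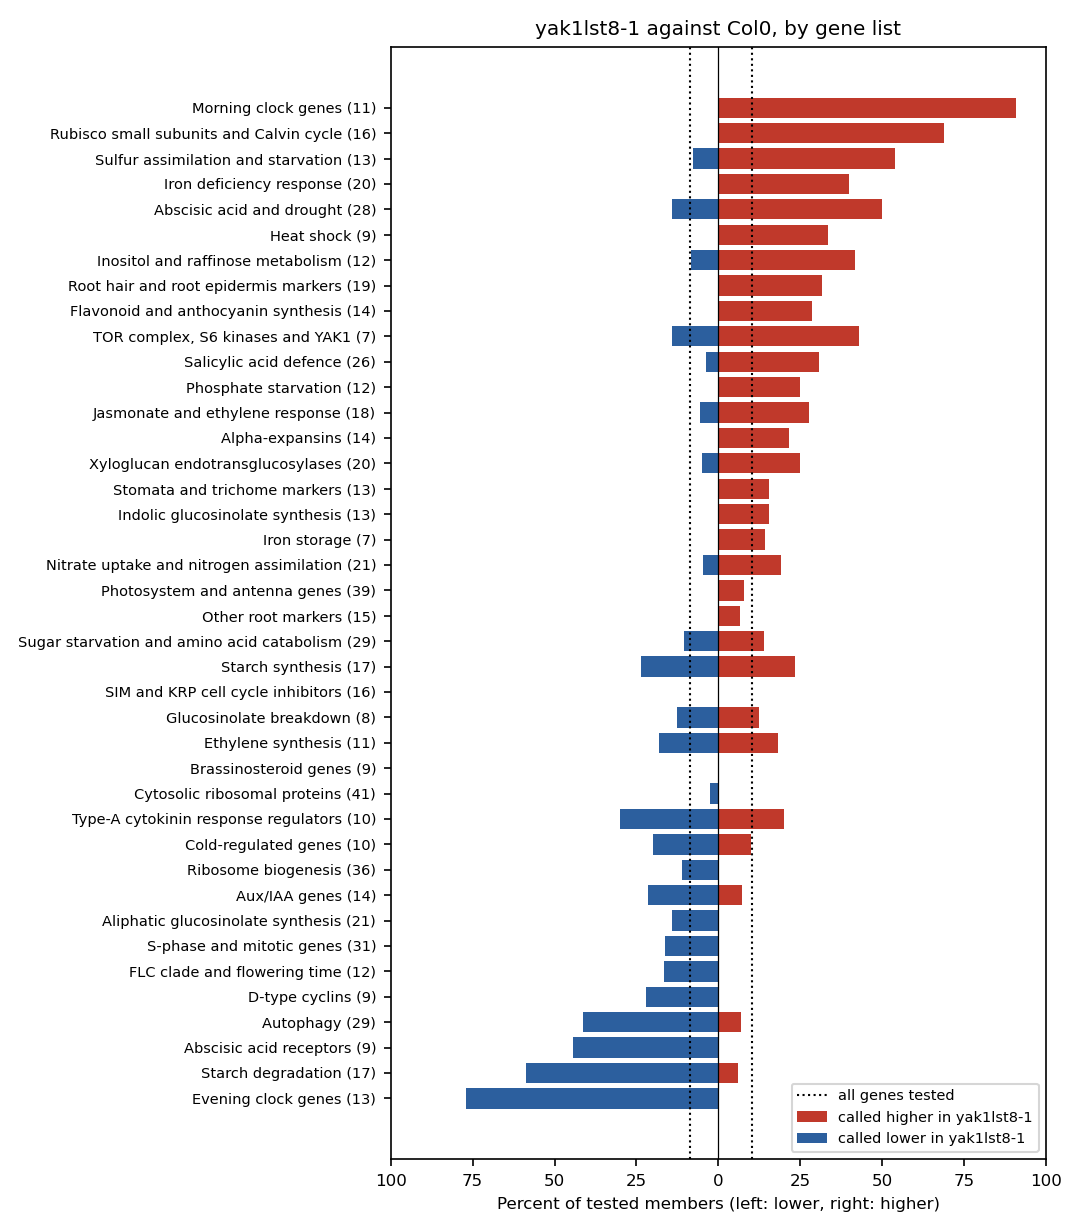
Percent of the tested members of each gene list that were called higher (red, to the right) or lower (blue, to the left) in yak1lst8-1 against Col0, with the number of tested members in brackets. Dotted lines mark the shares over all genes tested, 10.3 % higher and 8.65 % lower, and the clock lists stand at the extremes of the plot.

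Clock genes moved furthest as groups. Of the 11 morning clock genes tested, 10 rose and none fell (median 1.46), while of the 13 evening clock genes, 10 fell and none rose (median -0.96). All 10 evening genes and 9 of the 10 morning genes stayed called in each of the 13 alternatives, which include leaving out any 1 Col0 or yak1lst8-1 library. The exception, RVE2, was lost without yak1lst8-1 replicate 2 (adjusted p = 0.0680), Col0 replicate 2 (adjusted p = 0.0679) or Col0 replicate 3 (adjusted p = 0.0813). With the replicate block 1 morning gene was also called lower. Wherever a list below is said to have no member called in a direction by edgeR, DESeq2 called 0 as well, and at most 2 members passed an unadjusted p of 0.05.

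Sequence near the start of the evening genes is shown to mark the evening element. Whether that motif has a part in their falls was not tested. The evening element, AAATATCT on either strand, lay between 250 bases before and 50 bases after the start of 7 of the 13 evening clock genes (53.8 %), of 1 of the 11 morning clock genes (9.09 %, PRR9, where it follows the start) and of 5.65 % of 27443 protein-coding genes. Each stretch of 60 bases below comes from RefSeq, build TAIR10.1, is read 5′ to 3′ on the strand of the gene, and has the motif in capitals (AGATATTT is the motif read on the other strand).
TOC1, chr5:24674786-24674845, plus strand: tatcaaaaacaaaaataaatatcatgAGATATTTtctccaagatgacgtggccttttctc
PRR5, chr5:8358700-8358759, minus strand: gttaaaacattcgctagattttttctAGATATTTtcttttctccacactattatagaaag
ELF4, chr2:16735144-16735203, minus strand: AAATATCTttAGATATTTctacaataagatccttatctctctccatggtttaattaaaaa
LUX, chr3:17182946-17183005, plus strand: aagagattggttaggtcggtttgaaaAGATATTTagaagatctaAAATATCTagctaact
BOA, chr5:24003819-24003878, plus strand: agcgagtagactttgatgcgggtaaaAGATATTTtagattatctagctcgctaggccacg
FKF1, chr1:25508389-25508448, plus strand: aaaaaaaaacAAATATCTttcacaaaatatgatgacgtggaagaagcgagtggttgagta
COR27, chr5:17200064-17200123, minus strand: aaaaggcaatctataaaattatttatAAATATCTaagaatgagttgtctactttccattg
A match describes the letters of the stretch and shows no binding.

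LHY, a morning MYB factor that represses evening genes, stood at 9.14, 9.16 and 8.0 CPM in Col0 and at 86.3, 104 and 111 CPM in yak1lst8-1 (3.52 ± 0.17, adjusted p = 1.04e-09). All yak1lst8-1 libraries lay far above Col0 and also above the yak1 libraries, at 47.1, 47.9 and 68.1 CPM, while the lst8-1 libraries held 7.91, 11.9 and 10.3 CPM. Its partner CCA1 went from 19.6, 23.1 and 21.1 CPM to 109, 133 and 141 CPM (2.59 ± 0.23, adjusted p = 2.25e-06). RVE8, a related MYB factor that activates evening genes, went from 6.41, 7.0 and 5.21 CPM to 36.1, 39.0 and 38.9 CPM (2.62 ± 0.15, adjusted p = 4.86e-09). The groups did not overlap for any of these genes. LNK2, a coactivator that works with RVE8, rose by 1.7 ± 0.14, RVE1, which links the clock to auxin synthesis, by 1.98 ± 0.19, and CDF1, a repressor of flowering, by 1.46 ± 0.25. PRR9, RVE4, LNK1 and RVE2 rose by 1.16, 0.80, 0.77 and 0.59. PRR7, the remaining morning gene, had a log2 difference of -0.26 (95 % interval -0.48 to -0.04, adjusted p = 0.114). COL2, a morning expressed CONSTANS-like gene outside the list, was among the largest rises in the transcriptome, from 6.81, 8.93 and 6.97 CPM to 49.5, 53.7 and 61.5 CPM (2.87 ± 0.25).

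COR27, a cold and clock regulated repressor, showed the deepest fall of the evening genes, from 28.6, 20.9 and 22.8 CPM in Col0 to 2.74, 2.5 and 1.71 CPM in yak1lst8-1 (-3.37 ± 0.35, adjusted p = 7.73e-06). PRR3, a pseudo-response regulator that protects TOC1, went from 24.2, 20.7 and 21.0 CPM to 6.0, 5.20 and 4.14 CPM (-2.09 ± 0.18, adjusted p = 3.09e-07). FKF1, a blue light receptor that promotes flowering, went from 83.7, 76.5 and 81.0 CPM to 30.5, 25.6 and 22 CPM (-1.62 ± 0.11, adjusted p = 1.53e-08). No yak1lst8-1 library reached the Col0 range in these genes. LUX, part of the evening complex, stood at 48.2, 47.8 and 48.8 CPM in Col0 and at 21.7, 24.1 and 22.8 CPM in yak1lst8-1 (-1.08 ± 0.08, adjusted p = 3.49e-08). Its partners ELF4 and ELF3 fell by 0.75 and 0.35, and BOA, a homologue of LUX, by 1.28. TOC1, the evening repressor of CCA1 and LHY, went from 120, 115 and 130 CPM to 70.9, 58.9 and 56.7 CPM (-0.96 ± 0.12, adjusted p = 1.73e-05), and PRR5 and GI fell by 1.21 and 0.62. The 3 members that missed the threshold were ZTL (0.16, adjusted p = 0.263), LKP2 (-0.25, adjusted p = 0.139) and CHE (0.05, adjusted p = 0.834). GRP7, a clock-controlled RNA-binding protein outside the list, fell from 1998, 1507 and 1594 CPM to 512, 478 and 436 CPM (-1.84 ± 0.16, adjusted p = 7.99e-07).

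**Figure D2:**
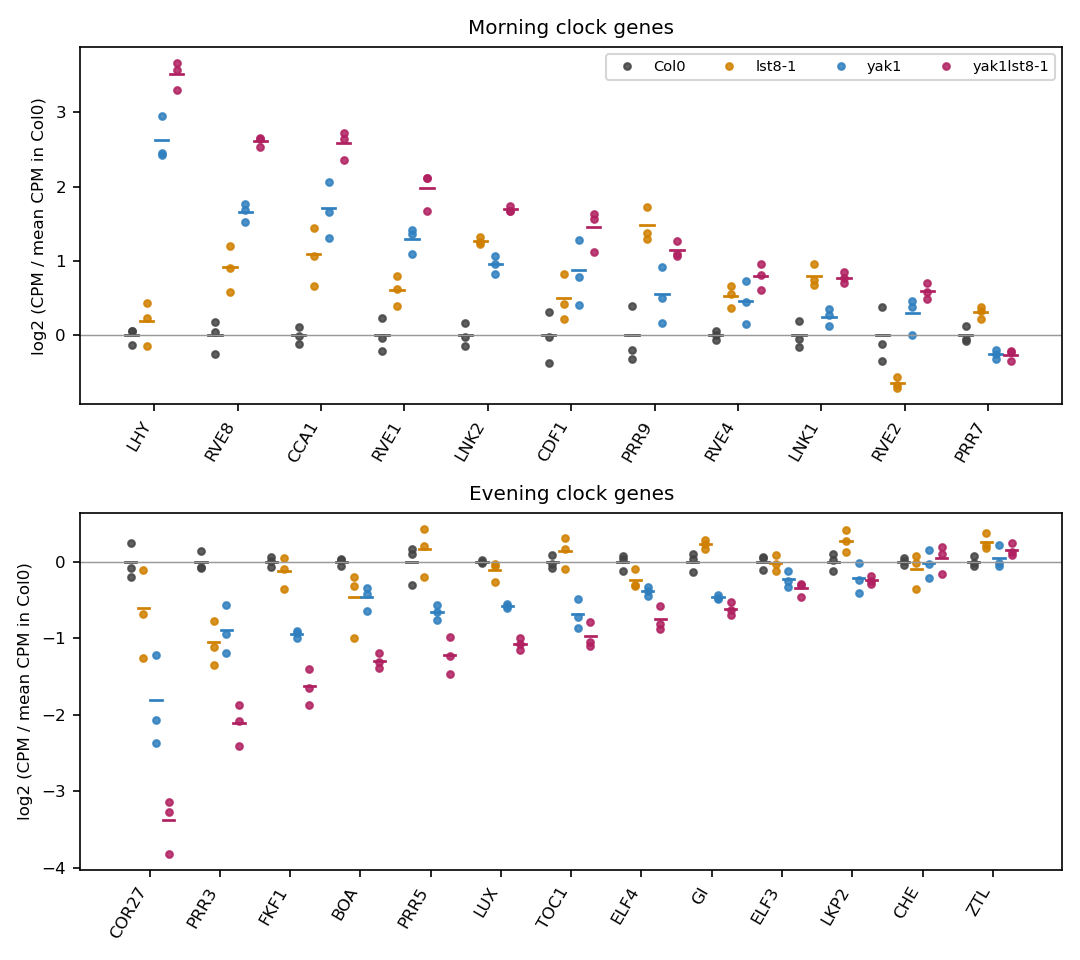
Level of each morning (top) and evening (bottom) clock gene in each library of 4 genotypes, as log2 of CPM over the mean CPM in Col0. Points are libraries and dashes the log2 of the mean CPM of a genotype. The yak1lst8-1 points of LHY, RVE8 and CCA1 lie above all others, and those of COR27, PRR3 and FKF1 below all others.

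The single mutants share their Col0 libraries with this comparison, so their values are set beside it without a test of overlap. Against Col0, 8 morning genes rose and 1 fell in lst8-1, and 6 rose in yak1, where 14.1 % and 13.4 % of all genes were higher and lower in lst8-1 and 5.75 % and 6.11 % in yak1. Among evening genes, 2 rose and 1 fell in lst8-1 and 8 fell in yak1. Directly against lst8-1, yak1lst8-1 had 7 morning genes higher and 1 lower and 11 evening genes lower, against 16.4 % and 16.6 % of all genes higher and lower. FKF1 was the evening gene for which the effect of yak1 was larger where LST8-1 was low than in Col0, by -0.55 on the log2 scale (adjusted p = 0.0467), in a test of this interaction that called 3.46 % of all genes.

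Genes for starch breakdown were lower as a group: 10 of 17 tested fell and 1 rose (median -0.44), and at least 10 fell in every alternative. PHS2, the cytosolic glucan phosphorylase, went from 499, 523 and 477 CPM in Col0 to 271, 272 and 237 CPM in yak1lst8-1 (-0.94 ± 0.08, adjusted p = 1.67e-07). SEX1, the glucan water dikinase that starts starch breakdown, went from 767, 897 and 823 CPM to 462, 434 and 358 CPM (-0.99 ± 0.11, adjusted p = 5.17e-06). Both genes had well separated groups. PWD, which phosphorylates starch after SEX1, fell by 1.12, the phosphatase SEX4 by 0.88, the debranching enzyme ISA3 by 0.89 and the disproportionating enzyme DPE1 by 0.96. AMY3, BAM4, PHS1 and PU1 fell by 0.49, 0.46, 0.44 and 0.35. The exception was BAM9, a beta-amylase homologue, which rose from 16.8, 20.9 and 24 CPM to 62.7, 68.8 and 67.0 CPM (1.69 ± 0.14, adjusted p = 2.13e-07). BAM3, the main leaf beta-amylase, had a log2 difference of -0.27 (adjusted p = 0.133) and BAM1 one of 0.45 (adjusted p = 0.0926). In the single mutants, 10 members fell and 2 rose in lst8-1 and 11 fell and 1 rose in yak1.

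Starch synthesis genes went both ways, with 4 of 17 higher and 4 lower (median -0.00). GBSS1, the granule-bound synthase that makes amylose, rose from 14.3, 18 and 14.1 CPM to 64.8, 81.5 and 77.7 CPM (2.28 ± 0.17, adjusted p = 1.32e-07), with no overlap. SS2 rose by 0.53, and APL1 and ADG1, subunits of ADP-glucose pyrophosphorylase, by 0.44 and 0.25. The branching enzyme SBE2.1 fell by 0.77, the plastid phosphoglucomutase PGM by 0.64, SS4 by 0.57 and the debranching enzyme ISA1 by 0.20. ADG1 was not called without yak1lst8-1 replicate 2 (adjusted p = 0.0690) or Col0 replicate 3 (adjusted p = 0.0809), nor ISA1 without yak1lst8-1 replicate 2 or 3 or Col0 replicate 2 or 3 (p from 0.0645 to 0.0841).

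Transcripts for photosynthetic carbon fixation were higher in part. Of 16 Rubisco small subunit and Calvin cycle genes, 11 rose and none fell (median 0.34), although 7 rose without yak1lst8-1 replicate 3 or without Col0 replicate 3. RCA, which activates Rubisco, stood at 4070, 4115 and 3915 CPM in Col0 and at 7643, 8731 and 9699 CPM in yak1lst8-1 (1.11 ± 0.14, adjusted p = 1.83e-05). RBCS2B, a small subunit, went from 1791, 1696 and 1557 CPM to 2966, 3051 and 3313 CPM (0.89 ± 0.12, adjusted p = 2.80e-05). Neither gene's groups overlapped. GAPA, FBA1 and SBPASE, enzymes of the cycle, rose by 0.58, 0.79 and 0.51, and FBA2, GAPA-2, GAPB, RBCS3B, HCEF1 and RPE by between 0.22 and 0.39. The calls of RPE, RBCS3B, HCEF1 and GAPA-2 were lost without yak1lst8-1 replicate 3 (p from 0.0769 to 0.11) or Col0 replicate 3 (p from 0.0619 to 0.108). RPE and RBCS3B were also lost without yak1lst8-1 replicate 2 or Col0 replicate 2, HCEF1 without Col0 replicate 2, GAPA-2 without yak1lst8-1 replicate 2 and RBCS3B without yak1lst8-1 replicate 1 (p of at most 0.0865). RBCS1A had a log2 difference of 0.20 (adjusted p = 0.166), PRK one of 0.23 (adjusted p = 0.161) and PGK1 one of 0.05 (adjusted p = 0.748). The small subunit genes are close copies, and reads that aligned equally well to a second place had been removed, so their separate values are uncertain. The summed level of the list was 29445 to 34451 CPM in Col0, 28574 to 30965 CPM in lst8-1 and 40884 to 46201 CPM in yak1lst8-1.

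Of 39 photosystem and antenna genes, 3 were higher (7.69 %, against 10.3 % of all genes) and none lower (median 0.11). This count depended on the processing, since DESeq2 called 5 higher, the fit of only the 6 libraries compared 6 higher and 2 lower, the replicate block 9 higher and 2 lower, and scaling to library totals 4 higher and 2 lower. NPQ4, which senses acidity for photoprotection, rose by 0.54 ± 0.09 (adjusted p = 0.000410) and PSBO2, of the oxygen-evolving complex, by 0.47 ± 0.10 (adjusted p = 0.00349). LHCB2.2 rose by 0.62 ± 0.19 (adjusted p = 0.0341), and this call ended when any library other than yak1lst8-1 replicate 1 was left out, with p from 0.0577 to 0.116. The share of counts from plastid genes was 0.0424 to 0.061 % in Col0 and 0.0636 to 0.107 % in yak1lst8-1, which did not overlap. Its part in these results was not tested.

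Nitrogen assimilation genes had 4 members higher and 1 lower of 21 (median 0.01). GS2, the plastid glutamine synthetase, rose from 1410, 1342 and 1273 CPM to 2055, 2144 and 2150 CPM (0.66 ± 0.08, adjusted p = 7.74e-06). GLU1, which works after GS2, rose by 0.60 ± 0.11, and NIA2, the major nitrate reductase, by 0.78 ± 0.16. GLU2 rose by 0.28, a call lost without yak1lst8-1 replicate 3 (adjusted p = 0.0942) or Col0 replicate 1 (adjusted p = 0.0904), and GLN1;4, a cytosolic glutamine synthetase, fell by 0.83.

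**Figure D3:**
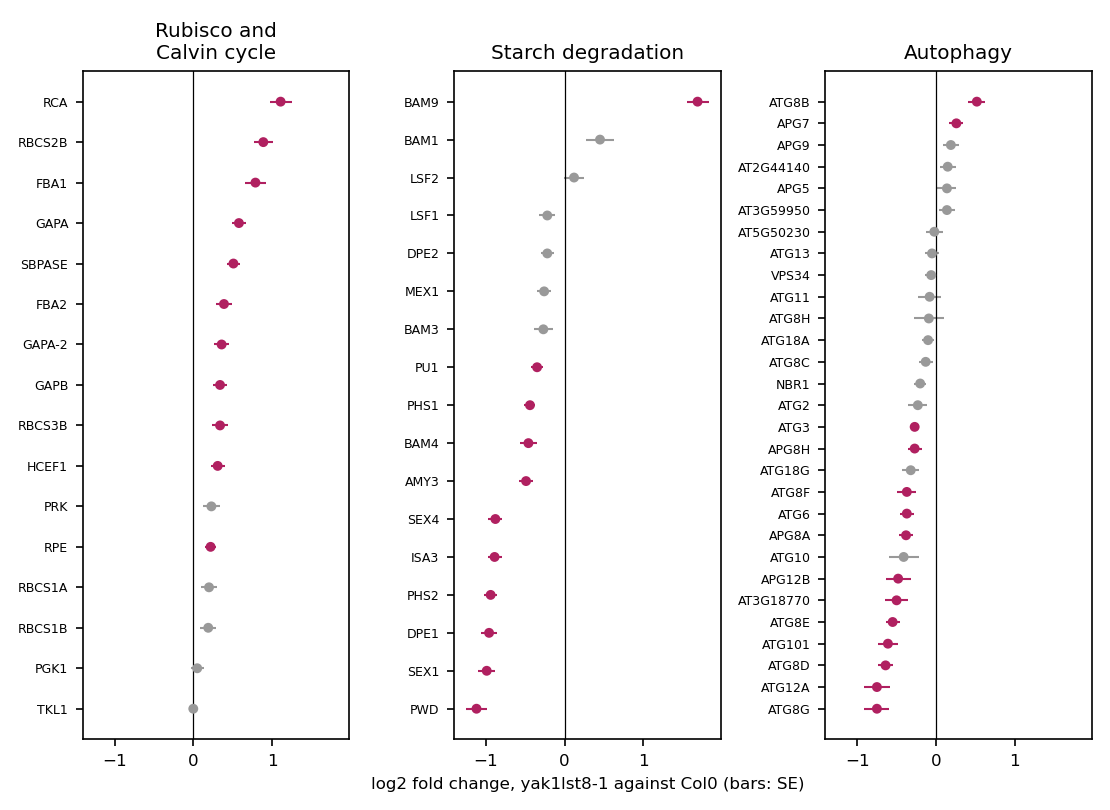
Log2 fold change of each tested member of 3 lists in yak1lst8-1 against Col0, with bars of 1 SE. Coloured points passed the test and grey points did not. Calvin cycle genes lie mostly to the right of 0, and starch degradation and autophagy genes mostly to the left.

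Autophagy genes were lower: 12 of 29 fell (41.4 %, against 8.65 % of all genes) and 2 rose (median -0.23). Without yak1lst8-1 replicate 1 the number that fell was 8. ATG8D, one of the ubiquitin-like proteins that coat the autophagosome, stood at 20.4, 19.3 and 17.9 CPM in Col0 and at 13.1, 11.4 and 12.5 CPM in yak1lst8-1 (-0.64 ± 0.09, adjusted p = 6.37e-05). ATG101, part of the initiating kinase complex, went from 25.4, 27.1 and 28.3 CPM to 15.8, 18.0 and 19.5 CPM (-0.61 ± 0.13, adjusted p = 0.00245). The groups of both genes lay apart. ATG8E and ATG8G fell by 0.55 and 0.75, ATG12A by 0.75, ATG6, of the lipid kinase complex, by 0.37, and ATG3, the conjugating enzyme of ATG8, by 0.27. ATG8B and APG7 rose by 0.52 and 0.26, and the number that rose was 1 without yak1lst8-1 replicate 2 or 3 or Col0 replicate 1 or 3. In yak1, 11 members fell and 1 rose, and in lst8-1 3 rose and 2 fell. The ATG8 genes are a family of related copies, so reads shared between them may have been dropped.

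Of 29 sugar starvation and amino acid catabolism genes, 4 were higher (13.8 %) and 3 lower (10.3 %, median -0.04). These shares lay near those over all genes tested, 10.3 % higher and 8.65 % lower. In lst8-1, 15 rose and 1 fell. DYL1, a dormancy-associated gene repressed by sugar, fell from 250, 254 and 364 CPM to 77.9, 104 and 89.4 CPM (-1.68 ± 0.16, adjusted p = 1.61e-06), and its relative DRM2 fell by 1.04 ± 0.16. TPS10 fell by 0.48. DIN9, a mannose phosphate isomerase, rose by 1.11 ± 0.21, and DIN2, a beta-glucosidase, by 2.90 ± 0.61 from 0.0667, 0.154 and 0.666 CPM to 3.79, 1.54 and 1.57 CPM. ERD5, the proline dehydrogenase, rose by 0.52 against Col0 in yak1lst8-1 and by 2.76 in lst8-1. GDH2, glutamate dehydrogenase, rose by 0.51 with overlapping groups. ERD5 was not called without yak1lst8-1 replicate 1 (adjusted p = 0.0548), nor GDH2 without yak1lst8-1 replicate 1 or 2 or Col0 replicate 2 or 3 (p from 0.0639 to 0.198). Without yak1lst8-1 replicate 1, 2 members of the list were called higher.

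The inositol and raffinose list had 5 of 12 members higher and 1 lower (median 0.19). VTC4, an inositol phosphatase, rose by 0.66 ± 0.10 (adjusted p = 0.000181). Galactinol synthases GOLS2 and GOLS3, which start raffinose synthesis, rose by 2.25 ± 0.42 and 1.24 ± 0.25 at levels of at most 4.26 CPM, and the inositol oxygenase MIOX4 rose by 2.31 ± 0.49. MIPS1, the inositol phosphate synthase, rose by 0.84 ± 0.24 against Col0 although it fell by 1.60 in lst8-1, and MIPS3 fell by 0.59. The call of MIPS1 was lost without yak1lst8-1 replicate 2 (adjusted p = 0.0513), yak1lst8-1 replicate 3 (adjusted p = 0.10) or Col0 replicate 1 (adjusted p = 0.0870).

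Abscisic acid and drought genes were higher on balance, with 14 of 28 higher and 4 lower (median 0.49), and at least 13 rose in every alternative. In lst8-1 16 rose and 3 fell, and in yak1 2 rose and 7 fell. P5CS1, the proline synthesis enzyme, stood at 36.0, 43.8 and 62.5 CPM in Col0 and at 118, 128 and 125 CPM in yak1lst8-1 (1.38 ± 0.21, adjusted p = 0.000268). HAB1, a phosphatase that damps abscisic acid signalling, went from 14.9, 16.2 and 15.4 CPM to 28.6, 35.0 and 34.9 CPM (1.08 ± 0.12, adjusted p = 5.50e-06). These groups did not overlap. The related phosphatases HAI1 and ABI2 rose by 3.50 ± 0.64 and 0.48 ± 0.13, HAI1 from 0.667, 0 and 0.121 CPM to 3.85, 3.85 and 1.71 CPM. ABF3, a transcription factor that activates abscisic acid targets, rose by 0.74 ± 0.10, and the homeodomain genes HB-7 and HB-12 by 1.03 and 1.02. NCED3, which makes the hormone, rose by 1.40 ± 0.40, and so did 2 of the enzymes that break it down, CYP707A1 by 0.84 and CYP707A2 by 0.93, while CYP707A3 fell by 1.06. ABF1, a close relative of ABF3, fell from 84.2, 81.0 and 85.6 CPM to 44.6, 41.4 and 38.0 CPM (-1.02 ± 0.07, adjusted p = 2.58e-08). The late embryogenesis gene LEA14 fell by 0.94 ± 0.10 and the dehydrin ERD10 by 0.49. NCED3 was not called without yak1lst8-1 replicate 2, Col0 replicate 1 or Col0 replicate 2 (p from 0.0540 to 0.0899), nor ABI2 without yak1lst8-1 replicate 3 (adjusted p = 0.0677) or Col0 replicate 1 (adjusted p = 0.0535).

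Receptors of the hormone were lower, with 4 of 9 lower and none higher (median -0.13). PYL9 went from 15.1, 16.4 and 16.1 CPM to 7.17, 8.37 and 9.57 CPM (-0.93 ± 0.10, adjusted p = 4.75e-06), with no overlap. PYL6 fell by 0.96 ± 0.15 and PYL5 by 0.50 ± 0.10. PYL8 fell by 0.22 ± 0.07 (adjusted p = 0.0297), and its call was lost without Col0 replicate 1 (adjusted p = 0.109), Col0 replicate 3 (adjusted p = 0.0571) or any 1 of the yak1lst8-1 libraries (p from 0.0531 to 0.0814). Cold-regulated genes gave 1 rise and 2 falls of 10 (median -0.62). KIN1 rose from 3.14, 2.62 and 4.18 CPM to 39.7, 35.8 and 24.3 CPM (3.31 ± 0.31, adjusted p = 2.25e-06), the chloroplast protectant COR15B fell from 13.1, 14.2 and 19.9 CPM to 2.74, 3.85 and 4.50 CPM (-2.11 ± 0.26), and COR413IM1 fell by 1.74 ± 0.20, less than in lst8-1 (-4.89).

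Iron deficiency response genes were higher, with 8 of 20 higher and none lower (median 0.50), whereas 10 fell and 2 rose in lst8-1 and 7 rose in yak1. BHLH101, a transcription factor induced by iron shortage, stood at 2.74, 2.08 and 1.51 CPM in Col0, at 0.613, 1.21 and 1.09 CPM in lst8-1 and at 8.39, 9.53 and 7.50 CPM in yak1lst8-1 (2.00 ± 0.29, adjusted p = 7.55e-05). All yak1lst8-1 libraries were above all Col0 libraries. Its homologue BHLH100 rose by 1.65 ± 0.30, and CYP82C4, which makes an iron-mobilising coumarin, by 2.07 ± 0.40 from 4.07, 1.77 and 0.909 CPM to 9.50, 10.8 and 8.07 CPM. The nicotianamine synthase NAS4 rose by 1.22, the reductase FRO3 by 0.64, the transporter OPT3 by 0.59, and the regulators PYE and BTS by 0.51 and 0.38. BTS was not called without yak1lst8-1 replicate 1 or 2 or Col0 replicate 1 (p from 0.0601 to 0.0975). IRT1, the iron uptake transporter, stood at 62.1, 48.8 and 63.7 CPM in Col0, at 6.56, 11.3 and 24.6 CPM in lst8-1 and at 52.5, 64.9 and 83.8 CPM in yak1lst8-1 (0.20 against Col0, 95 % interval -0.48 to 0.88, adjusted p = 0.735). Col0 and yak1lst8-1 overlapped for IRT1, and both lay above lst8-1. Of 7 iron storage genes, the ferritin gene FER1 rose by 0.55.

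Sulfur assimilation and starvation genes had 7 of 13 members higher and 1 lower (median 0.35), and 4 were higher without yak1lst8-1 replicate 2 or without Col0 replicate 3. LSU1, a marker of low sulfur, went from 3.87, 3.39 and 2.18 CPM to 9.27, 11.3 and 8.57 CPM (1.62 ± 0.18, adjusted p = 5.50e-06), and SDI1, which represses glucosinolate synthesis under low sulfur, from 3.80, 4.46 and 3.70 CPM to 10.6, 12.9 and 8.71 CPM (1.42 ± 0.17, adjusted p = 1.09e-05). APR2, the reductase that controls sulfate assimilation, rose by 0.61, the uptake transporter SULTR1;1 by 1.2, and LSU2, SULTR1;2 and SULTR4;2 by 0.74, 0.46 and 0.33. The calls of these last 3 were lost without yak1lst8-1 replicate 2 or Col0 replicate 3 (p from 0.0506 to 0.134), those of SULTR1;2 and SULTR4;2 also without yak1lst8-1 replicate 3 (adjusted p = 0.108 and 0.111), and that of SULTR4;2 without Col0 replicate 1 or 2 (adjusted p = 0.0757 and 0.0711). GGCT2;1, a glutathione-degrading enzyme, fell by 1.13 ± 0.15. Of 12 phosphate starvation genes 3 were higher (median 0.11): the phosphatase PAP17 by 1.51 ± 0.19, PS2 by 1.32 ± 0.29, and the non-coding RNA AT4 by 0.82 ± 0.24. The call of AT4 was lost without either Col0 replicate 1 or 2 (adjusted p = 0.0679 and 0.0914) and without yak1lst8-1 replicate 2 or 3 (adjusted p = 0.0726 and 0.0677).

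Salicylic acid defence genes were uneven. Of 26 tested, 8 rose and 1 fell (median 0.70), against 17 that rose in yak1 and 6 that fell and 1 that rose in lst8-1. PBS3, which conjugates isochorismate on the way to salicylic acid, stood at 3.40, 2.69 and 2.00 CPM in Col0 and at 28.9, 14.9 and 5.92 CPM in yak1lst8-1 (2.64 ± 0.56, adjusted p = 0.00450). WRKY70, a transcription factor of this response, went from 8.94, 8.16 and 13.1 CPM to 65.8, 39.4 and 18.7 CPM (2.03 ± 0.48, adjusted p = 0.0101), and LURP1, an oomycete-induced gene, from 2.60, 2.39 and 6.24 CPM to 55.1, 29.3 and 6.35 CPM (2.99 ± 0.88, adjusted p = 0.0307). In each of them yak1lst8-1 library 1 was highest and library 3 lowest, just above the Col0 range for LURP1. The same held in the yak1 libraries, where LURP1 was at 160, 78.1 and 20.4 CPM. WAK1, a wall-associated kinase, showed the same order, at 67.7, 35.4 and 8.07 CPM against 6.27, 3.69 and 5.75 CPM in Col0 (2.82 ± 0.79, adjusted p = 0.0239).

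Without yak1lst8-1 replicate 1, the p of LURP1, WAK1 and WRKY70 was 0.141, 0.120 and 0.0534. LURP1 was also not called without yak1lst8-1 replicate 2 or any 1 of the Col0 libraries (p from 0.0521 to 0.102), nor was WAK1 without any 1 of the Col0 libraries (p from 0.0629 to 0.0771). The number of list members that rose was then 3, and it was 5 without yak1lst8-1 replicate 2, 4 without Col0 replicate 1, and 3 without Col0 replicate 2 or 3. When only the 6 libraries compared entered the fit, 4 rose and the p of PBS3 was 0.0624. DMR6, which degrades salicylic acid, rose by 0.76, EDS5, a transporter needed for its synthesis, by 0.53, ALD1 by 1.07 and UGT76B1 by 0.35, the last of which was lost without yak1lst8-1 replicate 3 (adjusted p = 0.0552) or Col0 replicate 3 (adjusted p = 0.0612). DMR6 was not called without yak1lst8-1 replicate 1 or Col0 replicate 2 or 3 (p from 0.0597 to 0.0975), EDS5 without any 1 library other than yak1lst8-1 replicate 3 (p from 0.0520 to 0.128), and ALD1 without any 1 library other than yak1lst8-1 replicate 1 (p from 0.0633 to 0.119). PR5, a pathogenesis-related gene, fell from 26.5, 20.1 and 9.45 CPM to 6.53, 3.37 and 2.14 CPM (-2.16 ± 0.57, adjusted p = 0.0175), a call lost without Col0 replicate 1 (adjusted p = 0.0659) or without yak1lst8-1 replicate 2 or 3 (adjusted p = 0.0591 and 0.0755). PR2 had a log2 difference of -1.73 (adjusted p = 0.0841) and ICS1, which starts the synthesis of the hormone, one of 0.80 (adjusted p = 0.109). PR1 was at or under 0.583 CPM in all 6 libraries. LHT7 and SAG13, outside the list, rose by 2.98 and 2.75 with the same order of libraries, and lost their calls without yak1lst8-1 replicate 1 (adjusted p = 0.0753 and 0.135). LHT7 was also not called without Col0 replicate 3 (adjusted p = 0.0552), and SAG13 was called in none of these repeats except that without yak1lst8-1 replicate 3 (p from 0.0648 in the others).

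**Figure D4:**
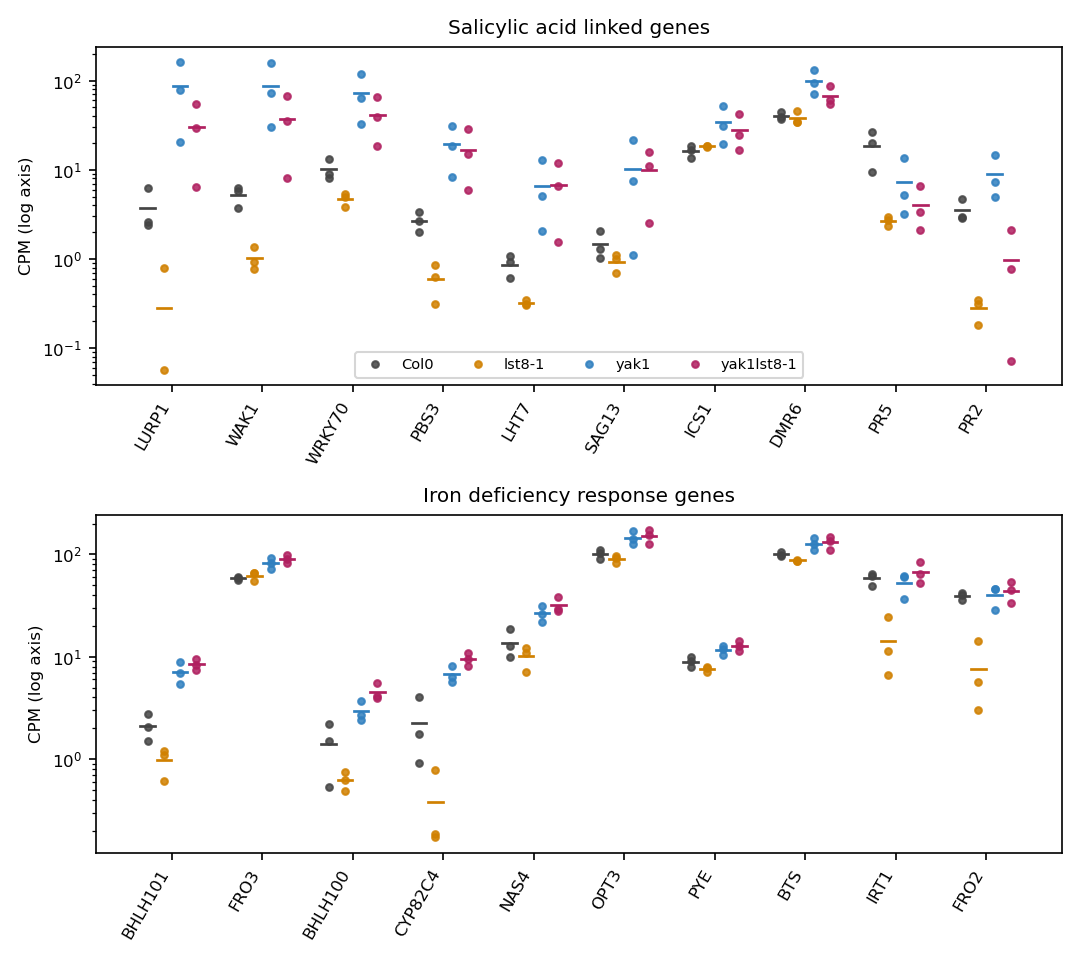
CPM on a log axis of genes linked to salicylic acid (top) and of iron deficiency response genes (bottom) in each library of 4 genotypes, with dashes at the means and with libraries at a count of 0 not drawn. The yak1lst8-1 points of the defence genes spread widely, while those of BHLH101, BHLH100 and CYP82C4 lie close together above Col0.

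Jasmonate and ethylene response genes had 5 of 18 members higher and 1 lower (median 0.10). VSP2, a storage protein induced by jasmonate, went from 1.2, 0.770 and 0.848 CPM to 10.3, 11.5 and 6.14 CPM (3.28 ± 0.37, adjusted p = 8.09e-06), and its close copy VSP1 from 5.61, 3.69 and 2.97 CPM to 18.9, 22.1 and 14 CPM (2.16 ± 0.30, adjusted p = 8.24e-05). CORI3, another jasmonate target, fell by 1.1 ± 0.25. TAT3 rose by 3.52 ± 1.07 from at most 0.242 CPM, JAZ9 by 0.63 and the chitinase HCHIB by 0.57, a call lost without yak1lst8-1 replicate 3 (adjusted p = 0.106) or any 1 of the Col0 libraries (p from 0.0514 to 0.0524). TAT3 was not called without yak1lst8-1 replicate 1 or 2 or Col0 replicate 1 or 2 (p from 0.0643 to 0.125), nor JAZ9 without yak1lst8-1 replicate 2 or 3 or Col0 replicate 1 or 2 (p from 0.0976 to 0.168). The number that rose was 3 without yak1lst8-1 replicate 2 or 3 and 2 without Col0 replicate 1 or 2. JAZ4, a repressor of jasmonate signalling outside the list, fell from between 8.84 and 11.4 CPM in Col0 to 2.22, 1.54 and 3.78 CPM (-1.98 ± 0.19, adjusted p = 1.24e-06). In ethylene synthesis, 2 of 11 genes rose and 2 fell: ACS9 rose by 2.90 ± 0.58 and ACS7 by 1.64 ± 0.41, while the oxidase ACO1 fell by 0.87 and ACS11 by 0.65. The call of ACS7 was lost without yak1lst8-1 replicate 1 (adjusted p = 0.0650) or Col0 replicate 3 (adjusted p = 0.0504).

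Glucosinolates are sulfur-rich defence compounds. Of 21 aliphatic synthesis genes, 3 fell and none rose (median -0.12), where 15 fell in lst8-1. MAM3, a chain-elongation enzyme, went from 90.6, 91.8 and 99.0 CPM to 38.8, 43.0 and 52.6 CPM (-1.07 ± 0.11, adjusted p = 2.07e-06), with no overlap, and it was not called in lst8-1 (0.25, adjusted p = 0.0915). BCAT4, which starts chain elongation, fell by 0.69 ± 0.17 and MAM1 by 0.85 ± 0.25 (adjusted p = 0.0281), and MAM1 lost its call without yak1lst8-1 replicate 1 or 3 (adjusted p = 0.0798 and 0.112) and without Col0 replicate 1 or 2 (adjusted p = 0.0995 and 0.0559). Of 13 indolic genes, the MYB regulators MYB34 and MYB122 rose by 0.40 and 1.11. Of 8 breakdown genes, NSP5 rose by 0.47 and the myrosinase PEN2 fell by 0.32. PEN2 was not called without yak1lst8-1 replicate 3 (adjusted p = 0.0503), and 3 members were lower when only the 6 libraries compared entered the fit.

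The called genes of ribosomes and the cell cycle were all lower. Of 36 ribosome biogenesis genes, 3 had a log2 value above 0 (median -0.22), against 10025 of the 20619 genes tested. Of the 36, 4 fell (11.1 %, against 8.65 % of all genes) and none rose. They were TOZ (-0.52, adjusted p = 0.0205), PRH75 (-0.34, adjusted p = 0.0304), AT5G27120 (-0.51, adjusted p = 0.0444) and REIL2 (-0.35, adjusted p = 0.0493). The count was 0 without yak1lst8-1 replicate 2, yak1lst8-1 replicate 3 or Col0 replicate 1, 2 without Col0 replicate 2 and 7 without yak1lst8-1 replicate 1. In lst8-1 12 members rose, and against lst8-1 29 were lower in yak1lst8-1. Of 41 ribosomal protein genes, RPL3B fell (2.44 % of the list, against 8.65 % of all genes), by 0.94 ± 0.14 (adjusted p = 0.000102). In this list 8 genes were lower at an unadjusted p below 0.05, and 11 were called lower with the replicate block. None of 16 SIM and KRP cell cycle inhibitor genes was called by edgeR or DESeq2 (median -0.06), and 1 was lower at an unadjusted p below 0.05.

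Among genes of S phase and mitosis, 5 of 31 fell (16.1 %, against 8.65 % of all genes) and none rose (median -0.44). Of the 31, 4 had a log2 value above 0. CYCB2;3, a mitotic cyclin, stood at 8.14, 7.16 and 8.72 CPM in Col0 and at 4.43, 3.95 and 4.07 CPM in yak1lst8-1 (-0.94 ± 0.17, adjusted p = 0.000736), with no overlap. CYCB1;4 fell by 0.64, CYCB1;3 by 0.86, CDKB1;2, a mitotic kinase, by 0.73 and CDKB2;1 by 0.49. CYCB1;3 lost its call without yak1lst8-1 replicate 3 (adjusted p = 0.0533) and CDKB2;1 without yak1lst8-1 replicate 2 (adjusted p = 0.0589) or Col0 replicate 2 (adjusted p = 0.0596). CYCB1;1 had a log2 difference of -0.50 (adjusted p = 0.302). Of 9 D-type cyclins, which drive entry into the cycle, 2 fell (22.2 %). CYCD1;1 fell by 0.78 ± 0.12 (adjusted p = 0.000174) and CYCD2;1 by 0.44. The count was 1 without yak1lst8-1 replicate 2, yak1lst8-1 replicate 3, Col0 replicate 1 or Col0 replicate 2. In lst8-1, 9 of the S phase and mitotic genes fell and 1 rose.

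Wall-loosening genes were partly higher. Of 14 alpha-expansins 3 rose (median -0.03), against 10 that fell and 1 that rose in lst8-1. EXPA1 went from 80.1, 94.2 and 87.7 CPM to 149, 167 and 192 CPM (0.96 ± 0.11, adjusted p = 9.20e-06), with no overlap. EXPA8 and EXPA10 rose by 1.09 ± 0.31 (adjusted p = 0.0252) and 0.52 ± 0.17 (adjusted p = 0.0413), and without yak1lst8-1 replicate 2, yak1lst8-1 replicate 3 or Col0 replicate 1 neither was called (p from 0.0726 to 0.171), nor was EXPA10 without Col0 replicate 3 (adjusted p = 0.126). Of 20 xyloglucan endotransglucosylase genes, 5 rose and 1 fell (median -0.03). They were XTH7 (0.75), XTH25 (2.24), XTH19 (0.97), XTH33 (0.80) and XTH6 (0.80), and XTH20 fell by 0.67. XTH6 was not called without any 1 library other than yak1lst8-1 replicate 1 (p from 0.0521 to 0.164), nor XTH33 without any 1 other than Col0 replicate 3 (p from 0.0580 to 0.175). The number that rose was 3 without yak1lst8-1 replicate 2, yak1lst8-1 replicate 3, Col0 replicate 1 or Col0 replicate 2.

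Root hair and root epidermis markers stood between the wild type and lst8-1. Of 19 tested, 6 rose and none fell (median 0.59), while 15 rose in lst8-1, and their summed level was 312 to 501 CPM in Col0, 679 to 731 CPM in yak1lst8-1 and 856 to 1407 CPM in lst8-1. RSL4, the factor that sets root hair length, stood at 3.67, 4.23 and 4.42 CPM in Col0, at 13.7, 17 and 22.1 CPM in lst8-1 and at 7.4, 5.87 and 7.0 CPM in yak1lst8-1 (0.73 ± 0.20, adjusted p = 0.0143). SHV2, PRP3, PRP1, MOP10 and RHD2 rose by 0.65, 1.27, 1.3, 1.00 and 0.40. The number that rose was 0 without Col0 replicate 1, 1 without yak1lst8-1 replicate 1 and 3 without yak1lst8-1 replicate 3. PRP1 was not called without any 1 library other than Col0 replicate 3, nor MOP10 without any 1 of the 6 (p from 0.0558 to 0.139). Markers of other root tissues summed to 281 to 401 CPM in Col0 and 321 to 536 CPM in yak1lst8-1, with SCR higher by 0.57 and 1 of 15 called, and stomata and trichome markers to 48.2 to 55.3 CPM and 47.8 to 53.6 CPM, with 2 of 13 called higher, GL3 by 0.99 ± 0.33 and TRY by 1.85 ± 0.63 at levels of at most 2.21 CPM. DESeq2 called none of these 13, and without 1 library at a time GL3 missed the threshold in 4 of 6 fits and TRY in all 6. Seed storage genes summed to at most 1.06 CPM in the 6 libraries, and none of the 7 passed the filter. The part of root tissue in other results was not tested.

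What was not brought back was read from the 5673 genes called in lst8-1 against Col0. In yak1lst8-1, 1516 of them (26.7 %) were called against Col0 in the same direction, 896 higher and 620 lower, and are described as not brought back. Of these, 1069 were not called between yak1lst8-1 and lst8-1, 243 lay nearer to Col0 than in lst8-1 and 204 farther from it. Another 2624 (46.3 %) were no longer called against Col0 and differed from lst8-1, and are described as brought back, 1242 from higher and 1382 from lower. A further 1251 (22.1 %) were called neither against Col0 nor against lst8-1, and 282 (4.97 %) were called on the other side of Col0, in equal numbers of 141 a direction. Not being called does not show equality with Col0, and the lst8-1 and yak1lst8-1 contrasts share the Col0 libraries.

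The rule for naming genes not brought back asked for a change of at least 2-fold in both genotypes and no call between yak1lst8-1 and lst8-1. It was met by 46 genes, and 37 of them were higher. Their distance from Col0 and their likeness to lst8-1 follow from this rule and are no separate result. CSLB03, a cellulose synthase-like gene, stood at 5.74, 2.23 and 3.27 CPM in Col0, at 15.1, 16.5 and 20.0 CPM in lst8-1 and at 20.6, 20.6 and 20.4 CPM in yak1lst8-1 (2.44 ± 0.22, adjusted p = 4.51e-07). CGA1, a GATA factor that promotes chloroplast development, went from 6.27, 7.54 and 8.0 CPM to 22.4, 26.1 and 30.9 CPM in lst8-1 and 20.5, 23.1 and 25.8 CPM in yak1lst8-1 (1.66 ± 0.18, adjusted p = 2.92e-06). Both mutant groups stood clear of Col0 in both genes, and the yak1lst8-1 libraries overlapped those of lst8-1 for CGA1 and lay just above them for CSLB03. GPX7, a glutathione peroxidase, was higher by 1.58 ± 0.16 and IAGLU, which conjugates auxin to glucose, by 1.40 ± 0.14. ERD3, a putative methyltransferase, stood at 85.9, 84.8 and 79.5 CPM in Col0, at 41.4, 39.6 and 37.4 CPM in lst8-1 and at 42.7, 35.5 and 41.0 CPM in yak1lst8-1 (-1.06 ± 0.11, adjusted p = 2.25e-06). The MYB-related genes RL5 and MEE3 were lower by 2.76 ± 0.32 and 1.80 ± 0.21, and VSP2, described above, was also among the 8 genes named. GSTF14, a glutathione transferase and one of the deepest falls, stood at 23.0, 33.0 and 26 CPM in Col0, at 4.11, 3.28 and 6.16 CPM in lst8-1 and at 4.84, 7.32 and 5.43 CPM in yak1lst8-1 (-2.25 ± 0.30, adjusted p = 9.07e-05). Of the list members called in lst8-1, 9 of 12 starch degradation, 15 of 19 abscisic acid and drought and 7 of 9 morning clock genes were not brought back. The share over all genes called in lst8-1 was 26.7 %. The class of genes not brought back takes no account of yak1 against Col0. In that comparison 11 of 17 starch degradation genes were lower and 1 higher, and 6 of 11 morning clock genes higher and none lower. Of the 28 members of the hormone and drought list, 2 were higher there and 7 lower. How much of this class goes with yak1 and not with lst8-1 was not tested. No iron deficiency or ribosome biogenesis gene was in this class. Of the 12 called in lst8-1 in each of these lists, 8 were brought back, and 3 iron and 4 ribosome biogenesis genes lay past the Col0 level. Over all genes called in lst8-1, 46.3 % were brought back and 4.97 % lay past the Col0 level. The 4 ribosome biogenesis genes were the falls described above. All of these lost their calls without yak1lst8-1 replicate 2, yak1lst8-1 replicate 3 or Col0 replicate 1.

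The brought back genes named here were chosen for the largest changes in lst8-1 and a log2 size under 0.3 in yak1lst8-1 against Col0. The rule fixes both, so neither is a separate result. ESM1, which steers glucosinolate breakdown, stood at 72.3, 62.3 and 58.3 CPM in Col0, at 3.50, 4.26 and 5.38 CPM in lst8-1 and at 62.8, 59.3 and 64.1 CPM in yak1lst8-1 (-0.05 ± 0.15 against Col0, adjusted p = 0.848). FRO2, the root ferric reductase, went from 39.9, 36.2 and 42.1 CPM to 3.00, 5.64 and 14.1 CPM in lst8-1 and to 33.6, 44.5 and 54.1 CPM in yak1lst8-1 (0.16 ± 0.37, adjusted p = 0.810). Col0 and yak1lst8-1 overlapped in both. CYP79F1, of aliphatic glucosinolate synthesis, had a log2 difference from Col0 of -0.12 after -2.92 in lst8-1, the cutinase CDEF1 one of 0.06 after -3.47, AIR1 one of -0.08 after -2.73 and scpl31 one of -0.09 after -2.47. SIP2, a raffinose-degrading galactosidase, was brought back from higher, at 115, 115 and 119 CPM in Col0, 559, 536 and 497 CPM in lst8-1 and 154, 116 and 108 CPM in yak1lst8-1. The retroposon transcript SADHU3-1 stood at 9.44, 16.9 and 8.19 CPM in lst8-1 and at no more than 0.385 CPM in Col0 and yak1lst8-1.

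Genes past the Col0 level were called in opposite directions in lst8-1 and yak1lst8-1. UBC5, a ubiquitin-conjugating enzyme, stood at 65.0, 62.6 and 66.0 CPM in Col0, at 87.8, 83.8 and 93.3 CPM in lst8-1 and at 32.3, 35.4 and 35.1 CPM in yak1lst8-1 (-0.91 ± 0.09, adjusted p = 1.66e-06). GSTF4, a glutathione transferase, went from 8.81, 10.2 and 9.57 CPM to 18.3, 15.3 and 16.1 CPM in lst8-1 and to 4.26, 3.56 and 3.50 CPM in yak1lst8-1 (-1.32 ± 0.15, adjusted p = 7.4e-06). The 3 genotypes did not overlap in either gene. ABF1, PYL9 and GI, described above, belong here, as do the ethylene response factor RAP2.2 (-0.54 ± 0.06), the cytochrome P450 gene CYP71A22 (1.13 ± 0.11) and the aldehyde dehydrogenase ALDH3I1 (0.55 ± 0.06). In yak1 without lst8-1, UBC5 was at 33.6, 39.8 and 36.4 CPM and GSTF4 at 4.21, 2.92 and 2.85 CPM.

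**Figure D5:**
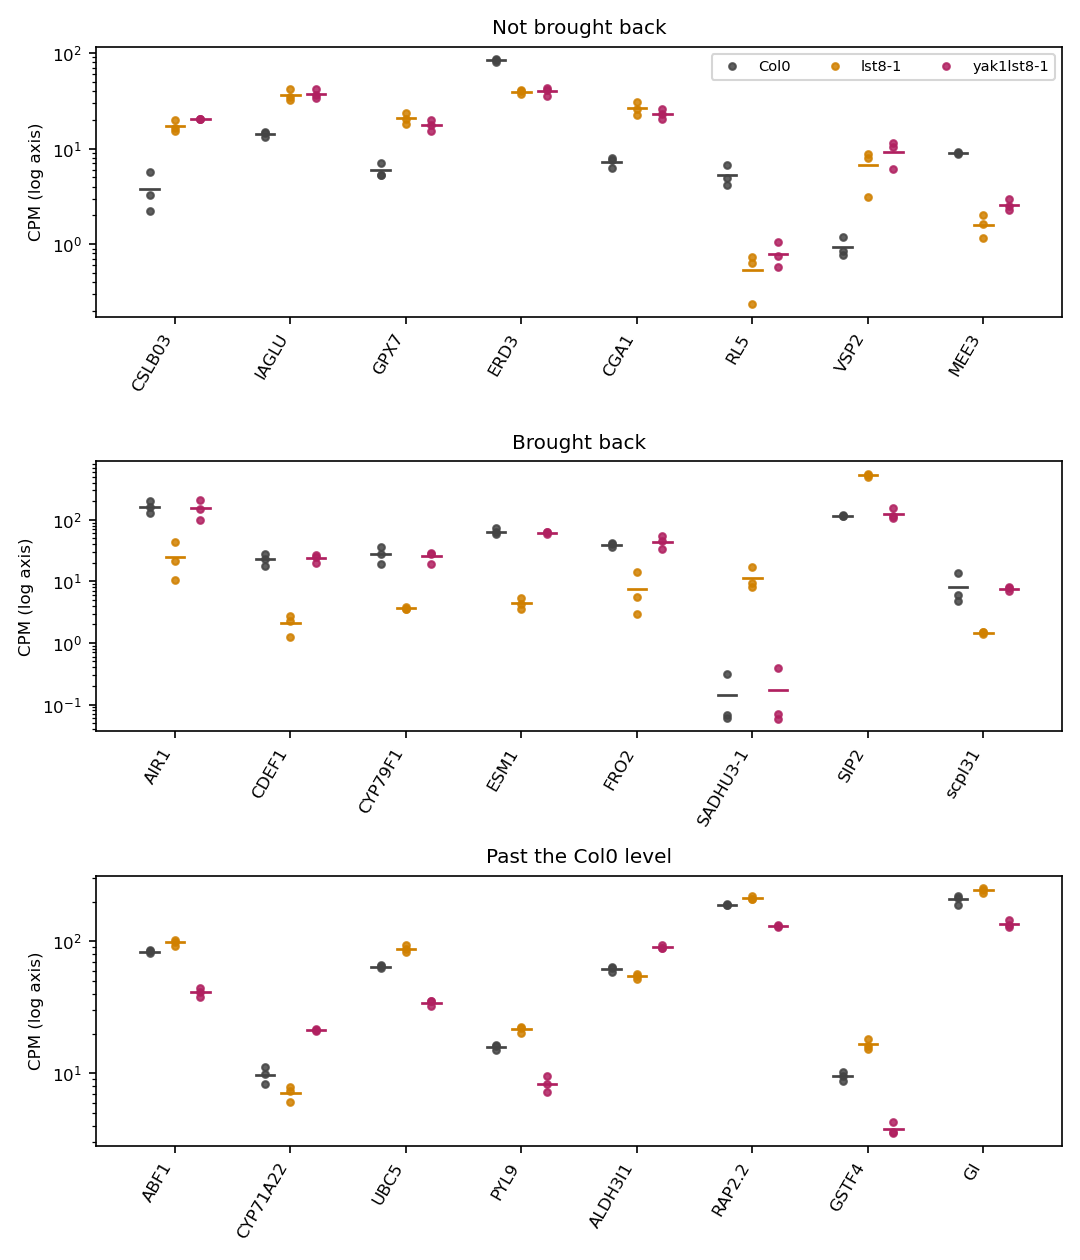
CPM on a log axis in each library of Col0, lst8-1 and yak1lst8-1 for the 8 named genes not brought back (top), brought back (middle) and past the Col0 level (bottom). Points are libraries and dashes their means. In the top panel the mutant points stand together away from Col0, and in the middle panel yak1lst8-1 lies near the Col0 level. In the bottom panel it lies on the other side of Col0 from lst8-1. The rules that chose the genes fix these positions.

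A total of 1148 genes were called in yak1lst8-1 and in neither single mutant, but only 5 of them were also called in the interaction test, so most are not shown to differ from the sum of the single effects. GLL22, a lipase-like gene, was the 1 gene of these that met the naming rule. It stood at 107, 73.2 and 97.3 CPM in Col0 and at 65.5, 46.7 and 52.2 CPM in yak1lst8-1 (-0.75 ± 0.19, adjusted p = 0.0129), with no overlap, and the call was lost without yak1lst8-1 replicate 2 (adjusted p = 0.0601), yak1lst8-1 replicate 3 (adjusted p = 0.0511) or Col0 replicate 1 (adjusted p = 0.0632).

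The largest rise among genes with a symbol, separated groups and at least 5 CPM was that of MRD1, a gene named for its fall in a methionine over-accumulating mutant. It stood at 0.868, 0.385 and 0.424 CPM in Col0 and at 8.74, 9.63 and 10.8 CPM in yak1lst8-1 (4.09 ± 0.25, adjusted p = 7.64e-09), with no overlap, and at 29.8, 32.6 and 34.4 CPM in yak1. PEN3, here the triterpene synthase AT5G36150, stood at 1.54, 1.23 and 0.545 CPM in Col0, at 39.9, 54.5 and 64.5 CPM in lst8-1 and at 8.80, 10.3 and 6.42 CPM in yak1lst8-1 (2.95 ± 0.36, adjusted p = 2.29e-05). It lies near YAK1 on chromosome 5. CRK6, a receptor-like kinase among the largest falls, went from 8.21, 7.47 and 3.82 CPM to 2.68, 1.25 and 0.286 CPM (-2.12 ± 0.61, adjusted p = 0.0254), a call lost without yak1lst8-1 replicate 2 or 3 (adjusted p = 0.0738 and 0.0869) and without Col0 replicate 1 or 2 (adjusted p = 0.0788 and 0.0622).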

How the data were processed

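RNA of whole plants was sequenced as stranded, poly(A)-selected, single-end TruSeq libraries, per the labels' protocols. Reads were mapped to TAIR10 with TopHat2 and Bowtie2, per the submitters' processing notes, whose versions are not given in the sources used here. The authors deposited raw counts per gene model for each library, and per the file headers any read that aligned as well at another place had been left out, which lowers the counts of close paralogs. Whether counting used the strand is not given in the sources used here, so overlapping antisense genes may share reads.

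The counts of all 18 libraries were fitted in 1 model with genotype as the term (R 4.3.3, edgeR 4.0.16, filterByExpr, trimmed mean of M values, robust quasi-likelihood test, two-sided, Benjamini-Hochberg over 20619 genes, adjusted p below 0.05), with a common biological coefficient of variation of 10.8 % and 12 residual degrees of freedom. The fit was tested on simulated data. The interaction is the yak1lst8-1 minus lst8-1 difference less the yak1 minus Col0 difference. Replicate libraries of Col0 and yak1lst8-1 differed by more than sampling noise (chi-square per degree of freedom 3.45 to 14.8). Names came from RefSeq, which listed 32835 of the 33602 models, 10654 of them with a symbol.

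The members and the 42 gene lists (733 genes) were chosen with earlier results of these data known, so list counts are descriptions. Genes were named by fixed rules: the TOR list, the 10 largest rises and falls among separated groups, up to 4 members by smallest p of each list with at least 3 calls, and up to 8 genes for each class of return to Col0 (a mean of 5 CPM or more in 1 group, and for genes not brought back a log2 size of at least 1, for genes brought back one under 0.3). Genes named as not brought back were also not called between yak1lst8-1 and lst8-1. Other list members are named by role. Alternatives were the size factors of DESeq2 1.42.0, library totals, no filter and a stricter filter on low counts (1 CPM), the DESeq2 test, only the groups compared, a replicate block, and leaving out each library.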

Additional observations from a re-analysis of the deposited data

Results flagged for a closer look

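For 25 named genes the effect of yak1 where LST8-1 was low (yak1lst8-1 against lst8-1) differed from its effect in Col0 (yak1 against Col0) by the interaction test of the edgeR fit, with an adjusted p below 0.05. The differences are given on the log2 scale. Many of these genes were chosen for their values in lst8-1 or yak1lst8-1, so the list is a description, and explanations were not tested.

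All 15 genes with a positive difference were lower in lst8-1 than in Col0. The lst8-1 against Col0 difference enters the interaction with the opposite sign, so this pattern is partly built in and is no separate result. ESM1 differed by 3.25 (3.84 where LST8-1 was low, 0.59 in Col0), COR413IM1 by 3.40 (3.15 and -0.25), CYP82C4 by 3.14 (4.73 and 1.58), CYP79F1 by 3.13 (2.81 and -0.32) and CORI3 by 2.81 (2.4 and -0.42). FRO2 differed by 2.56 (2.59 and 0.03), CDEF1 by 2.46 (3.54 and 1.07), AIR1 by 2.37 (2.65 and 0.28), BHLH100 by 1.84 (2.86 and 1.01) and EXPA10 by 1.26 (1.59 and 0.34). The same sign held for MEE3 at 1.67 (0.67 and -1.0), GGCT2;1 at 1.54 (0.82 and -0.73) and LEA14 at 1.00 (0.49 and -0.51), in which yak1 lowered the gene in Col0. Smaller differences were those of CYP71A22 at 0.63 (1.59 and 0.95) and ALDH3I1 at 0.39 (0.74 and 0.35).

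Negative differences belonged to ACS9 at -3.11 (-1.79 where LST8-1 was low, 1.33 in Col0), XTH25 at -2.80 (-0.78 and 2.02), SIP2 at -1.46 (-2.08 and -0.62), RSL4 at -1.29 (-1.37 and -0.09) and GLL22 at -1.04 (-1.14 and -0.10). IAGLU differed by -0.97 (0.04 and 1.01), RHD2 by -0.71 (-0.45 and 0.26), PRH75 by -0.61 (-0.82 and -0.20), UBC5 by -0.55 (-1.37 and -0.82) and FKF1 by -0.55 (-1.50 and -0.95).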

How the results depend on the processing

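No gene called between yak1lst8-1 and Col0 that belongs to a list or was named by a rule changed direction under any of the 13 alternatives. Of these 231 genes, 161 stayed called in every alternative that tested them and 70 lost the call in at least 1, which is 311 of 2993 gene and setting pairs. The balance of all calls did turn with library totals, to 1739 higher and 2164 lower. With the replicate block, 3028 genes were higher and 2743 lower in yak1lst8-1 against Col0, 4111 were called in yak1 against Col0, 1889 in the interaction, 2365 were not brought back and 618 lay past the Col0 level. Same-numbered libraries of Col0 and yak1lst8-1 had correlated deviations of 0.244, 0.0429 and 0.105. Not all of these exceed 0.1, the limit set for pairing, so the fit used for the results leaves the numbers out. Deviations from a group mean cancel out, so a library near that mean can correlate weakly even where samples are paired. The limit therefore cannot exclude pairing. Library 3 of yak1lst8-1 correlated best with Col0 library 2 (0.146). Same-numbered libraries of yak1lst8-1 correlated at 0.554, 0.0699 and 0.494 with yak1 and at 0.31, 0.00794 and 0.246 with lst8-1. Libraries 1 and 3 of yak1lst8-1 correlated at -0.508 and -0.505 with yak1 libraries 3 and 1. Library 1 was the lowest of its genotype on the third principal component in all 6 genotypes. Whether the numbers mark a shared batch was not tested, and the block changed the counts as given above. With the block, 17 ribosome biogenesis, 11 ribosomal protein and 13 S phase and mitotic genes were lower and 13 root hair markers higher. When only the groups compared entered the fit, 929 genes were called in yak1 against Col0, 338 in the interaction and 155 lay past the Col0 level. Without 1 library at a time, 1547 to 1814 genes were higher and 1306 to 1567 lower in yak1lst8-1 against Col0. The calls then ran from 4134 to 5000 in lst8-1 against Col0, from 1665 to 2262 in yak1 against Col0, from 5150 to 6368 between yak1lst8-1 and lst8-1, and from 347 to 839 in the interaction. In the same repeats, 1165 to 1376 genes were not brought back, 1806 to 2571 were brought back and 149 to 259 lay past the Col0 level. The cause of these shifts was not tested, although each repeat without a library has fewer samples. Scaling to library totals moved the median log2 value of all genes to -0.058, and DESeq2 called 2185 higher and 1720 lower. Genes near 1 CPM rest on few counts, since 3 counts are 0.175 to 0.289 CPM in these 6 libraries, and their fold changes are the least precise.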

Other observations

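Hormone response genes outside the main groups went both ways in yak1lst8-1 against Col0. Of 10 type-A cytokinin response regulators, which damp cytokinin signalling, 3 fell and 2 rose (median -0.17). ARR5 stood at 26.9, 24.9 and 45.1 CPM in Col0 and at 17.7, 19.0 and 18 CPM in yak1lst8-1 (-0.84 ± 0.17, adjusted p = 0.00178), ARR6 and ARR7 fell by 0.77 and 0.95, and ARR3 and ARR17 rose by 1.03 and 2.00. Col0 library 3 was the highest in ARR5, ARR6 and ARR7, and no groups overlapped. Without yak1lst8-1 replicate 1 or 2 or Col0 replicate 2 or 3, 1 member was called higher. Of 14 Aux/IAA genes, repressors of auxin signalling, IAA13, IAA1 and IAA19 fell by 0.49, 0.75 and 0.45 and IAA8 rose by 0.40, and IAA8 lost its call without yak1lst8-1 replicate 3 (adjusted p = 0.0662). IAA19 lost its call without yak1lst8-1 replicate 1 or 3 (adjusted p = 0.0925 and 0.0683) or Col0 replicate 2 or 3 (adjusted p = 0.0790 and 0.0618). Of 9 brassinosteroid genes edgeR and DESeq2 called 0, and 1 was lower at an unadjusted p below 0.05.

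Of 14 flavonoid and anthocyanin genes 4 rose and none fell (median 0.23). DFR, which commits the pathway to anthocyanins, rose from 0.267, 0.924 and 0.242 CPM to 2.62, 1.73 and 2.28 CPM (2.28 ± 0.43, adjusted p = 0.00107), with LDOX, GSTF12 and UGT78D2 higher by 1.15, 1.31 and 0.45. Of 9 heat shock genes 3 rose. HSP70 went from 26.8, 23.7 and 16.5 CPM to 46.5, 40.5 and 39.3 CPM (0.92 ± 0.12, adjusted p = 4.19e-05), HSP17.6A rose by 2.15 ± 0.47 at levels of at most 1.69 CPM, and HSP101 by 0.47 ± 0.14, a call lost without yak1lst8-1 replicate 1 (adjusted p = 0.145), Col0 replicate 2 (adjusted p = 0.0560) or Col0 replicate 3 (adjusted p = 0.114). Without yak1lst8-1 replicate 1 the number that rose was 1. The flowering repressor FLC fell from 13.8, 16 and 15.4 CPM to 8.69, 10.7 and 9.85 CPM (-0.63 ± 0.14, adjusted p = 0.00343), against -2.01 in lst8-1, and the flowering promoter FT fell by 1.51 ± 0.48 from at most 1.33 CPM. Of these 2 falls in a list of 12, 1 remained without yak1lst8-1 replicate 2 or 3 or Col0 replicate 1.

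Of the 100 tested genes nearest to YAK1 (50 on each side), 16 were higher and 14 lower in yak1lst8-1 against Col0, which is 30 % against 18.9 % of all genes, and 8 changed at least 2-fold. In yak1 against Col0 16 % of them were called, against 11.9 % of all genes. In lst8-1 against Col0, where the plants do not carry the yak1 mutation, 36 % of them were called against 27.5 % of all genes, and 12 changed at least 2-fold. Near LST8-1, 18 % of 100 genes were called and 4 changed at least 2-fold.

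The telobox, AAACCCTA on either strand, lay between 250 bases before and 50 bases after the start of 17 of 36 ribosome biogenesis genes (47.2 %) and 20 of 41 ribosomal protein genes (48.8 %), against 6.22 % of all protein-coding genes. The G box, CACGTG, lay there in 5 of 20 iron deficiency genes (25 %), BHLH38, BHLH100, BTS, FRO3 and OPT3, against 7.68 %. The letters TTGACC on either strand, a form of the W box, lay in this window in none of 27 salicylic acid defence genes. The share was 14.2 % of all protein-coding genes. Other forms of the W box and sequence outside the window were not searched, so a lack of W boxes in these promoters is not shown. The counts for the telobox, the G box and TTGACC are descriptions of the letters in the windows.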
